A study of Homo sapiens and Mus musculus with 27 samples.

Results

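MDA-MB-231 is an established human breast cancer cell line of the triple-negative type. RNA from MDA-MB-231 cultures given bortezomib with AMD3100 was compared here with RNA from cultures given vehicle. The members were the 3 libraries labelled bortezomib with AMD3100 and the 3 labelled vehicle, which are 6 of the 27 libraries in the series. The drug doses were 10 nM bortezomib and 10 µM AMD3100, and the vehicle cultures received neither. The length of treatment is not given in the sources used here. The series also holds MDA-MB-231 cultures given 10 nM bortezomib with 10 µM of an agent labelled TM, cultures of the HCC1937 breast cancer line given vehicle, TM or AMD3100 without bortezomib, and 4T1 mouse tumours, which were not analysed here. The labels call the libraries of each group biological replicates and do not say whether they came from separate cultures, so the p-values measure the spread between these libraries only. No MDA-MB-231 library had bortezomib alone or AMD3100 alone, so in this comparison the effects of the 2 drugs cannot be told apart.

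Bortezomib is a boronate inhibitor of the proteasome, the barrel-shaped protease that degrades ubiquitin-tagged proteins, and it binds the chymotrypsin-like subunit encoded by PSMB5. When the proteasome is blocked, undegraded proteins are known to engage heat shock factor and the unfolded protein response of the endoplasmic reticulum (ER), and the transcription factor NFE2L1 restores proteasome subunit genes. AMD3100, also called plerixafor, is an antagonist of CXCR4, the receptor of the chemokine CXCL12.

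Levels are given as CPM, the count of a gene relative to the count total of its library, with totals scaled by the trimmed mean of M-values (TMM), in the order of replicates 1, 2 and 3. A gene was called higher or lower when its edgeR quasi-likelihood test reached an adjusted p under 0.05, and "rose" and "fell" are used only for called genes. Gene totals ran from 41808815 to 47208527 counts in the vehicle libraries and from 40389469 to 42351202 in the treated libraries. Mitochondrially encoded genes took 3.94% to 4.06% of the counts in vehicle and 2.80% to 3.25% in treated libraries. The number of genes with at least 1 count was 25020 to 25423 in vehicle and 22912 to 23228 in treated libraries. A bulk library cannot tell a change in every cell from a change in some of the cells, nor fewer cells from less RNA per cell.

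Treated replicate 3 stood apart from treated replicates 1 and 2. Across genes, its log2 CPM values correlated more closely with bortezomib+TM replicates 1 and 2 (Pearson r 0.983 with each) than with replicates 1 and 2 of its own group (0.980 and 0.982). In the same way bortezomib+TM replicate 3 was closer to treated replicates 1 and 2 (0.983 with each) than to the other libraries labelled bortezomib+TM (0.976 and 0.978). Whether the labels of these 2 libraries are right was not tested, so treated replicate 3 and bortezomib+TM replicate 3 are named here as labelled. The 2 treated arms differed far less from each other than from vehicle. The deviation of a gene from its group mean correlated with the gene's log2 length at 0.14 and 0.11 in treated replicates 1 and 2, and at -0.15 in treated replicate 3. In the vehicle libraries the corresponding values were 0.10, -0.19 and 0.19, and in bortezomib+TM replicates 1, 2 and 3 they were -0.20, -0.36 and 0.32. Genes are not independent replicates, and these correlations describe the libraries only. The part of gene length in the results was not tested. For some results that change without treated replicate 3 the value without it is given, and other list counts and medians also changed.

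**Figure D1:**
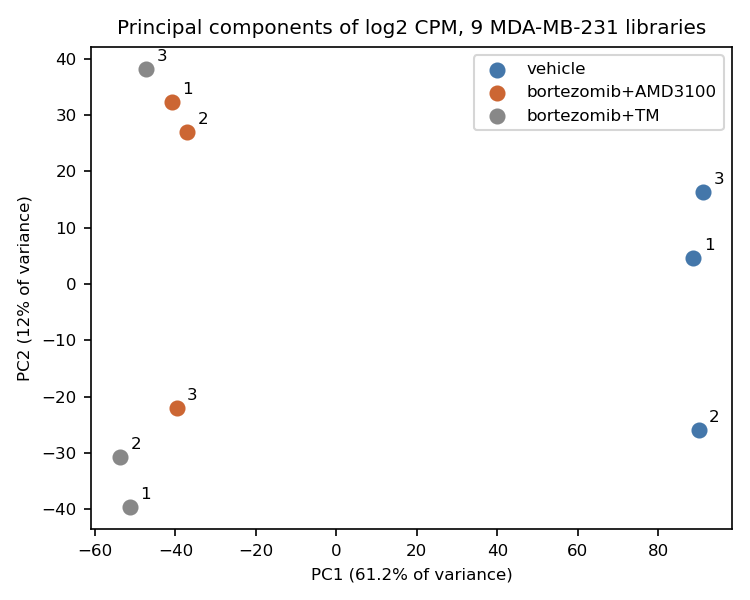
Principal components 1 and 2 of log2 CPM in the 9 MDA-MB-231 libraries, with points numbered by replicate and coloured by group. Component 1 (61.2% of the variance) has the 3 vehicle libraries between 88.7 and 91.1 and all 6 treated libraries at -37.0 or lower, while component 2 (12% of the variance) places treated replicate 3 beside bortezomib+TM replicates 1 and 2.

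The transcriptome differed widely between the groups. Of 16498 genes tested, 7675 were called (46.5%), of which 3678 were higher (22.3% of tested genes) and 3997 were lower (24.2%) after treatment. At least 2-fold changes were found for 1643 higher and 2236 lower genes, and at least 4-fold changes for 479 and 630. In 4424 genes (26.8%) all 3 treated libraries lay above all 3 vehicle libraries, and in 5134 (31.1%) all lay below. The median log2 change over all tested genes was -0.05. Without treated replicate 3, 7078 genes were called, 3525 higher and 3553 lower.

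The split between higher and lower genes depended on the scaling. The TMM factors were 1.14 to 1.25 in vehicle and 0.912 to 0.945 in treated libraries. With library totals alone, a setting added after the data were seen, 8416 genes were called, and 2108 of them were higher and 6308 lower. The median log2 change over all genes was then -0.41, and the higher share of the calls was 25.1%, against 47.9% with TMM. No called gene was called in the opposite direction under library totals, but 133 changed sign, and 79.5% of the calls remained. Changes below are therefore relative to the TMM scaling.

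**Figure D2:**
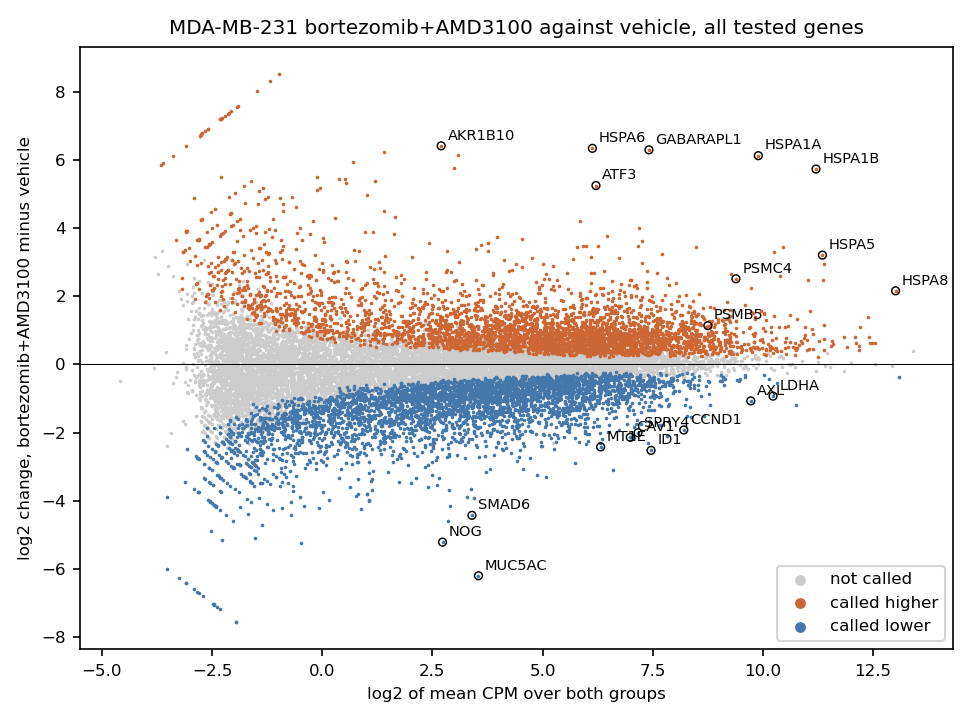
Log2 change (bortezomib+AMD3100 minus vehicle, vertical axis) against the log2 of the mean CPM over both groups (horizontal axis) for the 16498 tested genes, with called genes in colour and selected named genes circled. HSPA1A, HSPA1B, HSPA6 and GABARAPL1 lie near the top at log2 changes of 5.73 to 6.34, and MUC5AC, NOG and SMAD6 lie near the bottom.

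The drug targets differed in whether they could be measured. PSMB5 (ENSG00000100804, chr14:23016543-23035230 on GRCh38), the subunit that bortezomib binds, was at 267, 293 and 249 CPM in vehicle and at 593, 577 and 610.3 CPM in treated libraries. The groups did not overlap, and the log2 change was 1.14 ± 0.11 (SE; edgeR adjusted p 9.50e-06). CXCR4 (ENSG00000121966), the receptor that AMD3100 blocks, had 0 counts in all 6 libraries, which allows up to 0.0535 to 0.0574 CPM in a vehicle library and 0.0749 to 0.0795 CPM in a treated library (3 counts; counting error only). Its ligand CXCL12 and the second CXCL12 receptor ACKR3 also had 0 counts in all 6. The limit of 3 counts takes each count as independent, which was not tested. Among gene counts from 1 to 20, even numbers made up 57.8% to 59.7% in vehicle and 58.9% to 62.7% in treated libraries. Of the 7 listed genes of the CXCR4 axis only ARRB2 and GNAI2 had enough counts to be tested. GNAI2, an inhibitory G protein subunit used by CXCR4, was at 757, 869.8 and 703 CPM in vehicle and 756, 742 and 802 CPM after treatment, and the groups overlapped. ARRB2, an arrestin that binds activated receptors, was at 17.5, 18.7 and 16.4 CPM and then 22.4, 19.9 and 27.4 CPM, with an edgeR adjusted p of 0.0424. That call was lost without treated replicate 1 or 3 or vehicle replicate 1 or 3 (adjusted p 0.073 to 0.175). CD74 and MIF, which signal with CXCR4, had at most 12 counts in any of the 6 libraries. MIF overlaps 2 other genes in GENCODE 29, among them the antisense gene MIF-AS1, and how reads in overlapping genes were counted is not given in the sources used here.

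Genes of the constitutive proteasome rose almost as a whole. In the 20S core, 13 of 14 tested subunits rose and 0 fell, with a median log2 change of 1.19 against -0.05 over all genes. In the 19S cap, which recognises and unfolds ubiquitin-tagged proteins, 18 of 19 rose and 0 fell, with a median of 1.42. PSMB7, which carries the trypsin-like activity, went from 245, 279 and 242 to 893, 895 and 919 CPM, a rise of 3.54-fold. PSMC4, a cap ATPase, was at 192, 225 and 183 CPM in vehicle and at 1094, 1129.7 and 1202 CPM after treatment. It had the largest change of all 33 subunits, with a log2 change of 2.51 ± 0.11 (edgeR adjusted p 1.82e-08). PSMB3, PSMB4 and PSMB2 of the core rose by 3.19-fold, 2.62-fold and 2.60-fold. PSMD13, PSMD2 and PSMD11 of the cap rose by 3.14-fold, 2.98-fold and 2.29-fold. The 2 subunits that did not pass were PSMA2 (log2 change 0.10 ± 0.77) and PSMD7 (-0.18 ± 0.11). With library totals 1 cap subunit was called lower, and the medians were 0.83 and 1.06.

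The list of assembly factors, which also holds the proteasome activators PSME3 and PSME4, did not share that pattern. Of 10 tested genes, 1 rose and 2 fell, beside 22.3% higher and 24.2% lower of all tested genes, and the median was -0.07. POMP, the maturation factor of the 20S core, was at 102, 83.8 and 92.6 CPM and then at 263, 264 and 211 CPM. PSMG4, a chaperone of the alpha ring, fell from 13.5, 14.4 and 12.9 to 5.54, 4.12 and 4.53 CPM, and PSMD10, a chaperone of the cap base, fell by 1.92-fold. With library totals 1 was higher and 6 lower. Without treated replicate 3 or vehicle replicate 2 there were 2 higher calls. Among the 5 immunoproteasome and PA28 genes the inducible core subunit PSMB8 fell from 46.8, 57.7 and 43.3 to 33.2, 34.8 and 35.04 CPM, and the activator subunit PSME1 was called higher (1.32-fold). PSMB9, PSMB10 and PSME2 did not pass. With library totals 3 of these genes were called lower and PSME1 was no longer called, and without vehicle replicate 2 there were 2 higher calls.

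Genes that control proteasome supply and extract proteins from the ER rose in 8 of 14 cases and none was called lower (median log2 change 0.78). NFE2L1 itself went from 278, 328 and 250.1 to 449, 429 and 521 CPM, a 1.63-fold rise. HERPUD1, an ER membrane factor of ER-associated degradation, was at 65.5, 62.5 and 54.1 CPM in vehicle and 647, 626 and 699.6 CPM after treatment (10.8-fold). VCP, the ATPase that pulls tagged proteins out of the ER membrane, rose 2.72-fold, and its cofactors UFD1 and NPLOC4 rose 4.06-fold and 2.27-fold. The protease DDI2 and the deglycosylase NGLY1, which activate NFE2L1, were at log2 changes of -0.41 ± 0.29 and 0.17 ± 0.20 and did not pass.

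In the ubiquitin list 9 of 13 tested genes rose and 1 fell, with a median of 0.57. With library totals 4 were higher and 3 lower, and without treated replicate 3 there were 7 higher and 1 lower. UBQLN1, a shuttle that brings tagged proteins to the proteasome, rose 2.15-fold, while its relative UBQLN2 fell (log2 change -1.19 ± 0.24). The conjugating enzymes UBE2D3 and UBE2K rose 1.88-fold and 1.78-fold.

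Cytosolic heat shock genes were among those with the steepest rises. HSPA6, a strictly stress-inducible HSP70, was at 1.73, 2.37 and 1.01 CPM in vehicle and at 139, 134 and 143 CPM after treatment. HSPA1A (ENSG00000204389, chr6:31815464-31817946) went from 25.5, 32.5 and 23.01 to 1867, 1667 and 2115 CPM, a log2 change of 6.12 ± 0.20 (edgeR adjusted p 2.61e-09). The adjoining gene HSPA1B went from 88.2, 96.4 and 77.7 to 4760.2, 4177 and 4994 CPM, and as the 2 genes encode nearly identical transcripts, the division of reads between them is uncertain. In each of these genes every treated library lay above every vehicle library, which the rule that named the largest rises required. HSPA8, the constitutive HSP70 and one of the most abundant transcripts, went from 3241, 2734 and 3105 to 14149, 13683 and 12761 CPM. Of 11 HSP70 and HSP110 genes 9 rose and none was called lower, with a median log2 change of 1.72. HSPA4 and HSPA1L did not pass.

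J-domain proteins, which hand clients to HSP70, rose in 10 of 12 cases (median 1.55). DNAJB1 was at 234, 259 and 211 CPM in vehicle and 2592, 2482 and 2672 CPM after treatment, a log2 change of 3.46 ± 0.11. DNAJB2 rose 5.22-fold, DNAJB6 3.06-fold and the ER-resident DNAJB9 13.4-fold. HSPB8, a small heat shock protein, went from 6.33, 5.90 and 5.63 to 104, 108 and 117 CPM, and its partner BAG3, a nucleotide exchange factor of chaperone-assisted autophagy, from 111, 119 and 97.9 to 420.2, 424 and 482 CPM. HSPB1 rose 2.84-fold, and BAG5 fell 2.42-fold. Among 8 tested small heat shock and BAG genes 5 rose and 1 fell, while HSPB2, HSPB3, HSPB6, HSPB7 and CRYAB had too few counts to test.

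In the HSP90 machinery 9 of 12 genes rose and 2 fell (median 1.02). HSP90AB1, the constitutive HSP90, was at 3069.7, 2882 and 2893 CPM and then at 7572, 7849.8 and 7999.7 CPM. HSP90AA1, the inducible form, went from 707, 465 and 744 to 4218, 4097 and 2349 CPM, and treated replicate 3 was the lowest of the treated libraries. The cochaperones AHSA1, CDC37 and STIP1 rose 2.49-fold, 2.09-fold and 1.91-fold. PTGES3 and FKBP5 were the lower calls. There was 1 lower call without treated replicate 2 or 3 or vehicle replicate 3, and 0 without vehicle replicate 1. Of 11 genes in the list of cytosolic and mitochondrial chaperonins, which also holds the mitochondrial HSP70 gene HSPA9, 8 rose, with smaller changes (median 0.57). TCP1 rose 1.65-fold, HSPE1 1.58-fold and HSPA9 1.94-fold. With library totals 3 genes of this list were higher and 1 was lower.

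The 300-base promoter windows of RefSeq (GRCh38.p14, 250 bases before to 50 bases after the start) were searched for the letters of 3 response elements on both strands. A window was matched to 11118 of 16492 tested gene symbols. The heat shock element, searched as GAA, TTC and GAA with 2 free bases between them, was in 0.3% of these windows, in 0.48% of the 2730 windows of genes called higher and in 0.17% of the 2916 of genes called lower. Among the chaperone genes it was present at HSPA6, HSPA8, DNAJA1, DNAJB6 and CHORDC1, all called higher. By list it was in 2 of 10 windows of HSP70 and HSP110 genes, 2 of 12 of J-domain genes, 1 of 10 of the HSP90 machinery, 0 of 7 of small heat shock and BAG genes and 0 of 10 of chaperonins. The windows of HSPA1A, HSPA1B, DNAJB1, HSPB8, HSP90AA1 and BAG3, also called higher, did not hold these letters. HSPA6, HSPA8 and DNAJA1 are printed because they are the HSP70 gene with the largest fold change, the gene with the largest gain in CPM and a J-domain gene. The element is in capitals, 5′ to 3′ on the strand of the gene. It begins 74 bases before the start in HSPA6, 55 and 230 bases before it in HSPA8, and after the start in DNAJA1. HSPA6 is at chr1:161524290-161524589 on the plus strand, HSPA8 at chr11:123062087-123062386 on the minus strand and DNAJA1 at chr9:33025023-33025322 on the plus strand.
HSPA6: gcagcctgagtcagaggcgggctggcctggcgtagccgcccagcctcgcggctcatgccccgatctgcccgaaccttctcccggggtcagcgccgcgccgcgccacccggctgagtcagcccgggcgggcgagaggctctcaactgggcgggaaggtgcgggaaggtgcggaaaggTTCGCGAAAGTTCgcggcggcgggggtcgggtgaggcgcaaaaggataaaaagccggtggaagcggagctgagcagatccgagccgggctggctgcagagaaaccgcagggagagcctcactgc
HSPA8: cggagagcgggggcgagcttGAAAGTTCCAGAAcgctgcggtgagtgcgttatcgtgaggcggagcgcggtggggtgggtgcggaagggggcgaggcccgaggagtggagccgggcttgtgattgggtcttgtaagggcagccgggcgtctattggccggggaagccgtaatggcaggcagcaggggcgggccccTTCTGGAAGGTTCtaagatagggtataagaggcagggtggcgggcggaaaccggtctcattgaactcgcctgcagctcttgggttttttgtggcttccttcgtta
DNAJA1: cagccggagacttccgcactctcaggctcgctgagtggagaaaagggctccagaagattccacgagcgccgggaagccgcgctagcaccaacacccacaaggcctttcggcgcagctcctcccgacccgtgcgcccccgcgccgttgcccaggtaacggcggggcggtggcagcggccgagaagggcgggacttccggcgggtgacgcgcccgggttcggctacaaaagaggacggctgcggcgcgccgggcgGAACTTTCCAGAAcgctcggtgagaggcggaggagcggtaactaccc

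The antioxidant response element, searched as TGACNNNGC, is a shorter motif and was in 15.2% of all matched windows. It was in 17.3% of the windows of genes called higher and in 14.6% of those of genes called lower. In the 19S cap it was in 5 of 18 matched windows, and in the list of NRF2 targets in 4 of 14. It was in 1 of 10 windows of the 20S core and 5 of 9 of the assembly list. The immunoproteasome and PA28 genes had it in 3 of 5 and the metallothionein and zinc transport list in 3 of 5. The lysosome list had it in 7 of 10 windows and the ubiquitin list in 7 of 11. The cholesterol list had it in 0 of 14 and the matrix list in 0 of 13. The C/EBP-ATF response element, searched as TGATGNAAT, was in 0.46% of all windows, 0.59% of those called higher and 0.27% of those called lower. For genes called at least 4-fold higher or lower the shares were 1.27% and 0.86%. It was in 0 of 13 windows of the ATF4-CHOP list and 0 of 10 of the list of amino acid synthesis and transport. PSMC4, the proteasome subunit with the largest change, and TXNRD1, thioredoxin reductase, are printed with the antioxidant response element in capitals. The element begins after the start in PSMC4, and 8 and 99 bases before it in TXNRD1. PSMC4 is at chr19:39970915-39971214 and TXNRD1 at chr12:104215529-104215828, both on the plus strand. These matches describe letters in a window.
PSMC4: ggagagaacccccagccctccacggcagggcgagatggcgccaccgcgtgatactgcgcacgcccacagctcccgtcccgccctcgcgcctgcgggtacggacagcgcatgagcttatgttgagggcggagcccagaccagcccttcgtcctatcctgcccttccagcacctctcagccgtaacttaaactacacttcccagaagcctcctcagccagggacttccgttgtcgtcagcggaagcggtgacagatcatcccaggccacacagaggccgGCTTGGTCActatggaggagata
TXNRD1: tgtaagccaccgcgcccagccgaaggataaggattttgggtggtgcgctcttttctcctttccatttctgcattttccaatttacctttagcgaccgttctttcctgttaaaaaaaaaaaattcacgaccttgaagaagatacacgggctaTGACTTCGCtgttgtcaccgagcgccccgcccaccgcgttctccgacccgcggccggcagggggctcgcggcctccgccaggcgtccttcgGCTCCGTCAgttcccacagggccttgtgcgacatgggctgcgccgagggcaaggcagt

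Genes of the ER stress response rose as well. Of 15 ER chaperone and XBP1-branch genes 14 rose and none was called lower (median log2 change 0.98). HSPA5, the main ER HSP70, was at 517, 462 and 555 CPM in vehicle and at 5096, 4783 and 4286 CPM after treatment, a log2 change of 3.21 ± 0.12. HYOU1, a large HSP70 of the ER, went from 341, 409.5 and 319 to 1164, 1145 and 1301 CPM. XBP1, the transcription factor spliced by IRE1, rose 2.74-fold, and the lectin chaperone CALR went from 975, 1112 and 900.3 to 2466, 2421 and 2599 CPM. HSP90B1 did not pass (log2 change 0.66 ± 0.27).

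In the branch run by ATF4, the factor translated when eIF2 alpha is phosphorylated, 11 of 13 genes rose and none was called lower. The median log2 change of 2.24 was the largest of the 52 lists. ATF3 (ENSG00000162772), a stress-inducible repressor, was at 4.14, 4.01 and 3.25 CPM in vehicle and 138, 137 and 158 CPM after treatment, and ATF4 at 299.7, 299.5 and 291 CPM and 1356, 1376 and 1487 CPM. DDIT3, which encodes the pro-death factor CHOP, went from 3.32, 3.53 and 3.33 to 18.3, 19.8 and 18.9 CPM. PPP1R15A, the phosphatase subunit that restores translation, rose 6.30-fold, and SESN2, a restrainer of mTORC1, 11.2-fold. ATF5 and VLDLR did not pass.

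Genes that make and import amino acids, many of them ATF4 targets, rose in 12 of 14 cases (median 1.46). SLC3A2, the heavy chain of several amino acid transporters, was at 363, 431 and 353 CPM and then at 2280.4, 2239.8 and 2447 CPM. CTH, which makes cysteine, rose 6.22-fold, PHGDH, the first enzyme of serine synthesis, 3.30-fold and the glutamine carrier SLC1A5 2.83-fold. Among 20 cytosolic aminoacyl-tRNA synthetases 9 rose and 2 fell (median 0.59). CARS1, SARS1, MARS1 and WARS1 rose 2.64-fold, 2.29-fold, 2.28-fold and 2.01-fold. FARSB and VARS1 were the lower calls. DDIT3 and MARS1 overlap on opposite strands, and reads in the shared stretch cannot be told apart without strand.

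**Figure D3:**
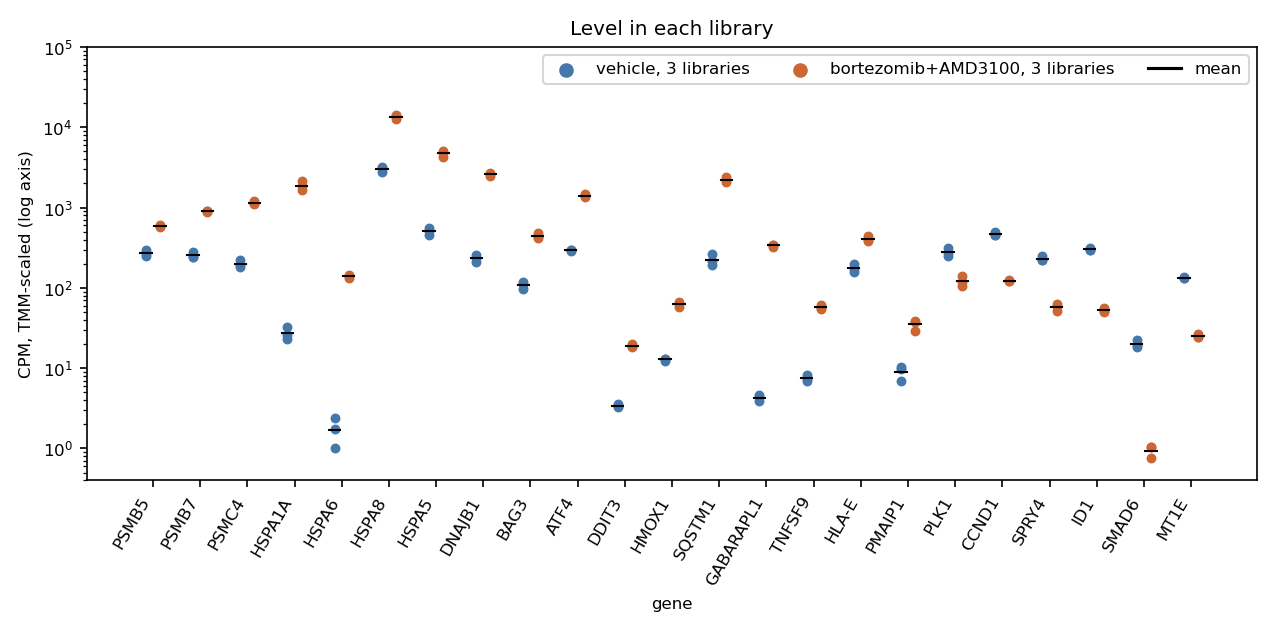
CPM of 23 named genes in each of the 3 vehicle and 3 bortezomib+AMD3100 libraries on a log axis, with the group mean as a bar. The points of the groups do not overlap for any of these genes, from HSPA6 (highest vehicle library at 2.37 CPM, lowest treated at 134 CPM) to SMAD6 (lowest vehicle at 18.6 CPM, highest treated at 1.03 CPM). Some of these genes, HSPA6 and SMAD6 among them, were named by a rule that required no overlap.

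NRF2, the factor that drives antioxidant genes, had 17 of 21 listed targets higher and none called lower (median 1.32). AKR1B10, an aldo-keto reductase, was nearly absent in vehicle at 0.178, 0.0371 and 0.230 CPM and reached 12.99, 12.5 and 12.99 CPM. SQSTM1, which encodes the autophagy receptor p62, went from 213, 267 and 195 to 2222, 2075 and 2370.0 CPM, and OSGIN1, an oxidative stress gene, rose 11.01-fold. HMOX1, the haem-degrading oxygenase, was at 12.9, 13.2 and 12.4 CPM and then 58.3, 63.1 and 67.2 CPM. FTL, the ferritin light chain, went from 801, 849.7 and 736 to 4221, 4511 and 4660.4 CPM. GCLC, TKT and ABCC1 were among those that did not pass.

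Autophagy receptors and ATG8 genes rose in 10 of 14 cases (median 1.38). GABARAPL1 (ENSG00000139112, chr12:10212458-10223130), an ATG8 protein of the autophagosome membrane, had the smallest p of all tested genes. It was at 3.94, 4.36 and 4.60 CPM in vehicle and 325, 341 and 346 CPM after treatment, a log2 change of 6.29 ± 0.11 (edgeR adjusted p 2.06e-11). It overlaps 1 antisense gene in GENCODE 29. Its relatives changed much less: MAP1LC3B rose 3.70-fold, GABARAPL2 had a log2 change of 0.48 ± 0.11 and GABARAP one of 1.45 ± 0.51. CALCOCO2, another receptor, rose 3.16-fold. BECN1, ATG5, NBR1 and TFEB did not pass.

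Of 20 lysosomal genes 13 rose and 2 fell (median 0.53; 9 and 5 with library totals). GLA, alpha-galactosidase, was at 42.8, 41.4 and 45.6 CPM and then at 283, 287 and 298 CPM. The protease CTSD rose 3.11-fold, the sphingolipid activator precursor PSAP 2.14-fold and the proton pump subunit ATP6V1B2 1.91-fold. CTSZ was among the lower calls, and both were lost without treated replicate 1 or 2 or vehicle replicate 1 or 2. Without treated replicate 3 the list had 10 higher calls and 1 lower call. Iron genes were split. FTL, FTH1, NCOA4 and IREB2 rose, STEAP3, a ferrireductase, fell from 79.7, 92.4 and 73.5 to 34.4, 40.8 and 38.6 CPM, and the transferrin receptor TFRC did not pass. NCOA4, the ferritinophagy receptor, rose 1.94-fold and IREB2, an iron sensor, 2.01-fold, and with library totals neither passed.

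Several metallothionein genes, which buffer zinc and copper, were lower. MT1E was at 138, 134 and 131 CPM in vehicle and at 26.9, 24.3 and 24.4 CPM after treatment, a log2 change of -2.42 ± 0.10 (edgeR adjusted p 1.84e-08). MT2A, the most abundant, was at 665, 618 and 569 CPM and then 477, 486 and 480.3 CPM with an adjusted p of 0.0452, and it lost its call when any 1 of 5 libraries was left out (treated 1, 2 or 3, vehicle 1 or 2; adjusted p 0.0842 to 0.151). Members of this family are close copies, so the division of reads is uncertain. SLC30A1, a zinc exporter, fell from 20.6, 17.6 and 23.3 to 7.78, 7.77 and 7.42 CPM, and SLC39A14, a zinc importer, rose 1.55-fold. In the list 2 of 8 tested genes rose and 4 fell, or 2 without treated replicate 3. Of 12 tested copper genes 3 were higher and 4 lower, beside 22.3% and 24.2% of all tested genes. SLC31A1, the copper importer, went from 41.6, 41.2 and 45.6 to 74.4, 75.8 and 74.5 CPM, and the superoxide dismutase SOD1 from 152, 165 and 154 to 506, 522 and 471 CPM. ATP7B, a copper-exporting ATPase, fell from 3.48, 4.36 and 4.08 to 1.00, 1.37 and 1.62 CPM.

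The class I antigen presentation list had 8 of 14 genes higher and 2 lower (median 0.64). HLA-E, a non-classical class I chain, was at 172, 199 and 156 CPM in vehicle and 389.9, 384 and 440.1 CPM after treatment, and HLA-B and HLA-C also rose, by 2.14-fold and 2.32-fold. These genes are close copies and highly variable, so the division of reads among them is uncertain. B2M, the shared light chain, was at 154, 122 and 149.9 CPM and then 195, 233 and 175 CPM (edgeR adjusted p 0.0094). That call was lost without treated replicate 2 (adjusted p 0.051) and with library totals (0.477). NLRC5, the transactivator of class I genes, fell from 14.8, 19.4 and 14.9 to 5.11, 4.45 and 6.04 CPM. TAP2 was the other lower call, and the list had 1 lower call without treated replicate 3 or vehicle replicate 1 or 3.

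Ligands of immune receptors rose in 7 of 10 tested cases (median 1.23). TNFSF9, the 4-1BB ligand, was at 7.31, 8.11 and 6.95 CPM and then 55.3, 56.6 and 60.5 CPM. The NKG2D ligands MICA and ULBP2 rose 3.68-fold and 2.40-fold, and PVR, a ligand of DNAM-1 and TIGIT, went from 186, 205 and 162 to 459, 457 and 552 CPM. CD274, which encodes PD-L1, was at 10.5, 8.70 and 11.7 CPM in vehicle and 15.2, 16.4 and 13.3 CPM after treatment. The CD274 values did not overlap, and the edgeR adjusted p was 0.057, while 5 alternative fits gave 0.019 to 0.0424. Of 7 tested genes tied to immunogenic cell death 5 rose, beside 22.3% of all tested genes. PANX1, a channel that releases ATP, rose 2.16-fold and ANXA1, a ligand sensed by phagocytes, 2.08-fold. HMGB1 and TLR3 did not pass, and IFNB1 and CXCL10 had too few counts to test. PDCD1LG2 did not pass (log2 change -1.88 ± 0.97), and without treated replicate 3 the checkpoint list held 1 lower call.

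Several chemokine and interleukin genes were at low levels. CXCL8 was at 0.553, 0.519 and 0.536 CPM and then 3.98, 6.82 and 3.82 CPM, CXCL3 at 0.143, 0.352 and 0.211 CPM and then 1.45, 1.47 and 1.22 CPM. PTGS2, the inducible cyclooxygenase, rose 3.11-fold, and IL1A went from 0.0357, 0.0186 and 0.0766 to 1.27, 0.950 and 0.901 CPM. In all 7 of 12 tested genes rose and LIF was the 1 lower call, which was lost without treated replicate 1 or 2 or vehicle replicate 2. CXCL10, CCL20 and TNF had too few counts to test. NF-kB subunits and their feedback inhibitors rose in 11 of 14 cases (median 1.44). RELB went from 5.19, 6.85 and 4.79 to 48.6, 44.6 and 53.4 CPM and NFKB2 from 55.7, 67.5 and 49.6 to 256, 261 and 301 CPM, both of the non-canonical branch, and the inhibitor NFKBIA rose 2.82-fold. NFKB1 fell (log2 change -0.50 ± 0.10).

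Type I interferon response genes were mixed, with 10 of 20 higher and 3 lower (median 0.63). Without treated replicate 3 there were 7 higher and 4 lower, and with library totals 6 and 6. IRF7, a driver of interferon transcription, was at 21.2, 24.9 and 18.5 CPM and then 42.4, 43.1 and 46.9 CPM. IFI44 rose 3.14-fold and IFIT3 2.55-fold, while OAS3, an antiviral RNA sensor, fell from 47.2, 53.2 and 46.4 to 27.6, 24.8 and 28.7 CPM. ISG15 and IRF9 were among those that did not pass.

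**Figure D4:**
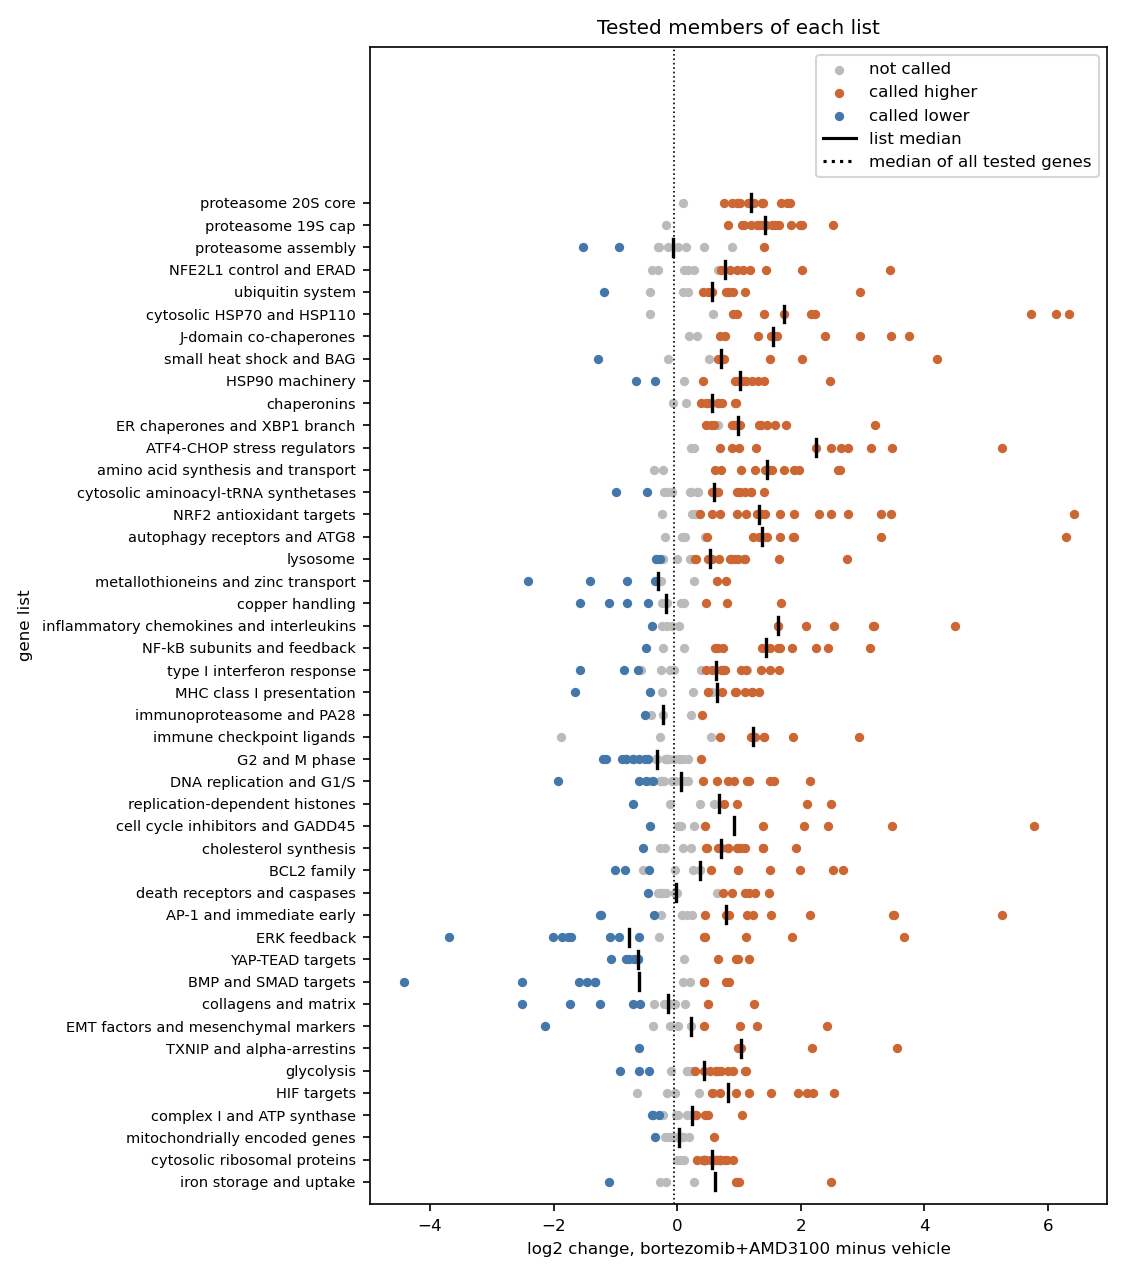
Log2 change (bortezomib+AMD3100 minus vehicle, horizontal axis) of the tested members of 45 gene lists (rows), coloured by call, with the list median as a bar and the median of all tested genes as a dotted line. The proteasome 20S core, 19S cap and ATF4-CHOP rows lie almost wholly to the right, and the ERK feedback, YAP-TEAD and BMP rows spread to both sides.

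Several mitotic genes were lower. In the G2 and M phase list 10 of 22 genes fell and 1 rose (median -0.34, or -0.16 without treated replicate 3). PLK1, a mitotic kinase, was at 275, 313 and 249.7 CPM in vehicle and 106, 119.6 and 139 CPM after treatment, and AURKA, another, at 147, 134 and 145 CPM and 70.03, 64.00 and 57.4 CPM. KIF20A, a motor of cytokinesis, fell 1.77-fold and CCNB1, the mitotic cyclin, 1.53-fold. The 1 higher call, MAD2L1, was lost without treated replicate 1 or 2 or vehicle replicate 2 or 3. Genes of DNA replication went both ways, with 9 of 23 higher and 4 lower (median 0.06, or -0.30 with library totals). With library totals 7 were higher and 12 lower. There were 2 lower calls without treated replicate 1 or 2 or vehicle replicate 1. CCND1, the G1 cyclin, fell from 453, 453 and 496 to 123, 125 and 123 CPM. The licensing factors CDT1 and CDC6 rose 2.82-fold and 2.24-fold, and RRM2, which supplies deoxynucleotides, went from 515, 479 and 531 to 1493, 1493 and 1508 CPM.

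Cell cycle inhibitors and GADD45 genes rose in 6 of 10 cases. CDKN1A, the inhibitor p21, was at 50.2, 58.5 and 45.8 CPM and then 270.3, 264 and 299.6 CPM. GADD45A went from 23.6, 23.5 and 23.9 to 246, 279 and 267 CPM, GADD45B rose 4.14-fold, and GADD45G, which was under 0.5 CPM in every vehicle library, reached 15.7, 15.3 and 15.8 CPM. Among replication-dependent histone genes, whose transcripts mostly lack a poly(A) tail, H1-4 went from 3.43, 3.34 and 3.22 to 13.3, 15.6 and 13.8 CPM and H2BC12 from 31.1, 31.2 and 28.2 to 59.3, 60.7 and 57.1 CPM, and the list had 4 of 8 higher. H2AC6 was called lower, and that call was lost without treated replicate 3 or vehicle replicate 1 or 3. H2AX, a histone variant of the damage response, fell from 593, 676 and 549 to 202, 201 and 230.5 CPM.

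Of 14 homologous recombination genes 2 rose, among them RAD54L (1.51-fold), and FANCD2 and BRCA1 were called lower (log2 changes -0.90 ± 0.21 and -0.76 ± 0.27), beside 22.3% higher and 24.2% lower of all tested genes. With library totals 2 were higher and 6 lower. The number of lower calls was 4 without treated replicate 1 and 1 without treated replicate 3 or vehicle replicate 1 or 3.

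In the BCL2 family 6 of 15 genes rose and 3 fell (median 0.37), beside 22.3% higher and 24.2% lower of all tested genes. With library totals 5 were higher and 4 lower, and the median was 0.02. The pro-death gene PMAIP1, which encodes NOXA, was at 10.4, 6.83 and 9.67 CPM and then 38.1, 39.03 and 29.4 CPM. BBC3, which encodes PUMA, went from 4.03, 4.81 and 3.08 to 24.6, 22.9 and 28.7 CPM, and the effector BAK1 from 50.97, 59.7 and 45.01 to 146, 140.4 and 153 CPM. The effector BAX and the protective BCL2L1 fell (log2 changes -0.46 ± 0.12 and -0.84 ± 0.13), and MCL1 did not pass. Death receptors and caspases rose in 6 of 16 cases with a median of -0.02, and with library totals 4 were higher and 5 lower. Without treated replicate 3 the median of this list was 0.24. The TRAIL receptors TNFRSF10B and TNFRSF10A rose 2.39-fold and 2.13-fold and CASP10 rose 2.24-fold.

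Immediate early genes rose in 10 of 17 cases and fell in 3 (median 0.79). EGR1 was at 11.2, 9.80 and 10.1 CPM and then 109, 113 and 126 CPM, and FOS at 1.52, 2.12 and 2.20 CPM and 22.2, 20.7 and 23.7 CPM. MYC rose 2.19-fold. Feedback genes of the ERK pathway moved in opposite directions, 5 of 14 higher and 8 lower (median -0.78; 3 and 9 with library totals). SPRY4, a receptor tyrosine kinase inhibitor, fell from 222, 248 and 220.3 to 51.03, 58.98 and 62.1 CPM, and SPRY1 fell 12.9-fold. PHLDA1 fell 3.40-fold. The phosphatases DUSP6 and DUSP4 fell (log2 changes -1.71 ± 0.19 and -0.94 ± 0.09), while DUSP1 rose from 144, 160.3 and 136 to 541, 508 and 552 CPM and DUSP8 rose 12.7-fold.

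A target of BMP signalling had the largest fall among the called members of the lists. SMAD6, an inhibitory SMAD, was at 19.3, 22.5 and 18.6 CPM in vehicle and 1.03, 0.750 and 1.03 CPM after treatment. ID1, a dominant-negative helix-loop-helix factor, went from 294, 312 and 296 to 50.1, 55.5 and 51.7 CPM, and ID3 and ID4 fell 2.51-fold and 3.00-fold. In all 6 of 12 genes fell and 4 rose, with the TGF-beta target TGFBI among those called higher (6 and 2 with library totals). Targets of YAP and TEAD were divided, with 4 of 12 higher and 6 lower. CCN1 and CCN2, matricellular proteins, rose 2.24-fold and 1.92-fold, while the receptor kinase AXL fell from 1129.5, 1281 and 1034 to 544, 524 and 574 CPM and tissue factor F3 fell 1.71-fold.

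In the matrix list 5 of 16 genes fell and 2 rose, against 24.2% and 22.3% of all tested genes, and with library totals 1 was higher and 11 lower. COL13A1, a transmembrane collagen, went from 172, 204 and 178 to 55.7, 54.2 and 56.7 CPM, TNC, tenascin C, from 28.8, 34.8 and 24.1 to 4.24, 4.35 and 6.86 CPM, and COL6A2 rose 2.38-fold. The list had 1 higher call without treated replicate 1 or 3 or vehicle replicate 1 or 3. Among EMT factors SNAI1 rose from 9.76, 10.3 and 7.31 to 47.3, 45.9 and 53.2 CPM and its relative SNAI2 fell from 2.59, 1.87 and 3.35 to 0.580, 0.775 and 0.398 CPM. MMP14, a membrane metalloprotease, rose 2.44-fold. CAV1, the caveolar coat protein and a feature of MDA-MB-231, fell from 224, 169 and 230.1 to 52.2, 50.98 and 38.4 CPM, and VIM did not pass.

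Cholesterol synthesis genes rose in 14 of 19 cases and MVK was the 1 lower call (median 0.71; 8 higher and 4 lower with library totals). HMGCS1, which makes HMG-CoA, was at 27.6, 20.2 and 27.6 CPM and then 103, 101 and 79.8 CPM, and NSDHL rose 2.62-fold. Hypoxia-inducible genes rose in 9 of 14 cases (median 0.82). NDRG1 went from 65.2, 78.8 and 56.1 to 364, 369 and 433 CPM, the vasodilator ADM from 21.3, 21.6 and 22.6 to 90.96, 97.6 and 93.9 CPM and the glucose transporter SLC2A3 rose 3.89-fold. CA9 and PDK1 did not pass. Among glycolytic genes 11 of 19 rose and 3 fell, and with library totals 8 rose and 5 fell. Without treated replicate 3 this list had 9 higher and 3 lower calls. GAPDH rose 1.76-fold and PGK1 2.15-fold, while LDHA, which makes lactate, fell from 1579, 1564 and 1592 to 868, 847 and 775 CPM. Alpha-arrestin genes, which include glucose uptake inhibitors, rose in 4 of 5 cases. ARRDC3 went from 2.50, 1.08 and 2.81 to 32.2, 26.99 and 16.4 CPM, with treated replicate 3 the lowest of its group, and TXNIP rose 2.05-fold.

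Of 17 nuclear genes of respiratory complex I and ATP synthase 4 were higher and 3 lower, beside 22.3% and 24.2% of all tested genes. The median was 0.25, and -0.11 with library totals, where 1 was higher and 4 lower. NDUFA4 rose 2.06-fold, and without treated replicate 2 there was 1 lower call. Of 13 mitochondrially encoded genes MT-ND3 was called higher and MT-CO1 lower (median 0.03), and with library totals 0 were higher and 6 lower (median -0.33). MT-CO1 was at 9302, 10431 and 9717 CPM and then 6929.9, 7717 and 8378 CPM, and it lost its call without treated replicate 1 or 2 or vehicle replicate 2 (edgeR adjusted p 0.0566 to 0.0974) and with median-of-ratios scaling (0.0815) or DESeq2 (0.101). Cytosolic ribosomal protein genes rose in 22 of 26 cases by small amounts (median 0.56), and with library totals 11 were higher and the median was 0.20. RPS19 rose 1.71-fold and RPL18 1.86-fold, and both have many processed copies in the genome, so their reads are uncertain.

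Some of the largest changes lay outside the lists. HKDC1, a hexokinase-like gene, went from 0.250, 0.241 and 0.211 to 19.2, 16.2 and 14.6 CPM, and GCNT3, a mucin glycosyltransferase, from 0.0535, 0.0742 and 0.0766 to 5.61, 5.25 and 4.90 CPM. CCL26, an eosinophil chemokine, went from 0.178, 0.334 and 0.383 to 5.25, 5.77 and 6.92 CPM, and FAM241B from 17.3, 19.4 and 15.2 to 268, 272 and 290.4 CPM. The rule that named these 4 genes required that the groups did not overlap. MUC5AC, a secreted mucin (chr11:1157953-1201138), had the largest fall of the named genes, from 19.1, 32.4 and 17.7 to 0.184, 0.250 and 0.504 CPM, a log2 change of -6.20 ± 0.37 (edgeR adjusted p 1.94e-07). NOG, which encodes the BMP antagonist noggin, fell from 13.4, 12.7 and 12.7 to 0.369, 0.250 and 0.424 CPM. ADGRF1, an adhesion receptor, was at 14.4, 12.1 and 15.01 CPM and then 0.764, 0.525 and 0.424 CPM.

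The transcription factors FOXQ1 and ATOH8 fell 15.2-fold and 14.7-fold, and ZBTB12 fell 11.5-fold. The secreted IGFBP1 fell 17.6-fold and APLN, the apelin precursor, 12.1-fold. TNS4, a focal adhesion adaptor, fell 12.5-fold and NOXA1, a NADPH oxidase activator, 11.1-fold. In CPM, the largest losses besides MT-CO1, LDHA, AXL and H2AX were those of PLEC, a cytoskeletal linker, from 2239, 2959.5 and 1961 to 839, 974 and 1326 CPM, and of IGFBP4 from 1489.8, 1722 and 1341 to 1007, 977 and 1120.0 CPM. For PLEC, treated replicate 3 was the highest treated library and vehicle replicate 2 the highest vehicle library.

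The labelled cell type was checked with marker genes. The MDA-MB-231 features VIM, CD44, AXL and CAV1 were present. Of 14 luminal and epithelial markers 8 had enough counts to test, namely KRT8, KRT18, KRT19, ERBB2, GATA3, FOXA1, EPCAM and CLDN4. ESR1, PGR and CDH1 were among those that did not. Of the 8 tested genes 5 were called lower and KRT18 was called higher, beside 24.2% lower and 22.3% higher of all tested genes. The number of lower calls was 0, 1 and 2 without treated replicate 1, 2 and 3, and 2, 1 and 3 without vehicle replicate 1, 2 and 3. Of 10 leukocyte markers 3 had enough counts to test and PTPRC and CD3E were among those that did not, and CD14 was the 1 called gene, from 0.375, 0.260 and 0.345 to 1.27, 1.02 and 1.22 CPM. Of 7 endothelial markers 4 were tested, all under 1 CPM among those called, and KDR and PECAM1 were lower.

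The cultures given bortezomib with TM offer a comparison at the same bortezomib dose. No gene of 16498 was called between the AMD3100 arm and the TM arm by edgeR (0% called; 1464 at an unadjusted p under 0.05; smallest adjusted p 0.234), and limma-voom called none. DESeq2 called 51 genes, 37 higher with AMD3100 and 14 lower. Without bortezomib+TM replicate 3, which lay near AMD3100 replicates 1 and 2 and whose label was not tested, edgeR called 183, 138 higher and 45 lower. The median standard error of the log2 difference was 0.23, and 4.51% of genes differed by at least 1 on the log2 scale. The genes with the smallest p were all higher with AMD3100. SPEN, a transcriptional repressor, was at 20.4, 24.1 and 19.03 CPM with AMD3100 and 10.3, 8.91 and 12.3 CPM with TM. WNK1, a kinase of ion transport, was at 51.2, 56.7 and 46.6 CPM with AMD3100 and 30.8, 23.5 and 30.1 CPM with TM, and FAT1, a cadherin, at 44.8, 40.9 and 34.4 and 22.3, 16.7 and 25.3 CPM. These genes were picked for their small p, and edgeR called none of them. ZFP36L1 and ZFP36L2, which promote mRNA decay, differed by 0.63 ± 0.10 and 0.87 ± 0.14 on the log2 scale.

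The 2 arms share the vehicle libraries. The log2 difference, AMD3100 arm minus TM arm, was -0.17 ± 0.11 (SE) for PSMB5, -0.09 ± 0.16 for HSPA1A and -0.11 ± 0.09 for ATF4. It was -0.23 ± 0.09 for GABARAPL1, -0.17 ± 0.13 for SQSTM1 and -0.06 ± 0.21 for SMAD6. None of these passed the test, which does not show that the arms act alike. Mean levels in the TM arm were 665 ± 95.4 CPM (SD, n = 3) for PSMB5, 2006 ± 392 CPM for HSPA1A and 0.977 ± 0.0171 CPM for SMAD6.

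AMD3100 without bortezomib was given to HCC1937, another established breast cancer line. In a fit of both lines, with HCC1937 AMD3100 replicate 1 left out because it stood apart from its group (19.9% mitochondrial counts against 10.5% to 10.6% in the others), 13 of 21155 genes were called in HCC1937 against its own vehicle (12 higher, 1 lower). The change in MDA-MB-231 differed from that in HCC1937 for 6445 genes (30.5%), of which 3141 (14.8%) had the greater change in MDA-MB-231 and 3304 (15.6%) the smaller or more negative one. With the left-out library kept in, 3358 genes differed. The line and the presence of bortezomib differ together, so they cannot be told apart. CXCR4, at 0 counts in the 6 MDA-MB-231 libraries given vehicle or bortezomib with AMD3100 (bortezomib+TM replicate 1 had 6 counts), was at 76.3 ± 6.25 CPM (SD, n = 3) in HCC1937 vehicle and 67.7 and 66.4 CPM in its AMD3100 replicates 2 and 3 in the joint scaling.

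Among the genes with the smallest p for this difference were chaperone and autophagy genes that rose in MDA-MB-231. GABARAPL1 was at 112 ± 3.67 CPM in HCC1937 vehicle (SD, n = 3) and at 108 and 109 CPM with AMD3100, a log2 change of -0.05, against 6.32 in MDA-MB-231. HSPA1A had a log2 change of -0.12 in HCC1937 against 6.15, and the difference was 6.27 ± 0.19 (SE; edgeR adjusted p 4.25e-12). DNAJB1 differed by 3.44 ± 0.12. ID1 and NOG, lower in MDA-MB-231, had log2 changes of 0.26 and 0.08 in HCC1937. With HCC1937 AMD3100 replicate 1 kept in, the differences of GABARAPL1, HSPA1A, ID1 and NOG were 6.63, 6.55, -2.51 and -5.16, and all 4 passed the test. PSMB5 changed by 0.13 in HCC1937, and its difference of 1.04 ± 0.11 passed the test (adjusted p 4.22e-06).

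**Figure D5:**
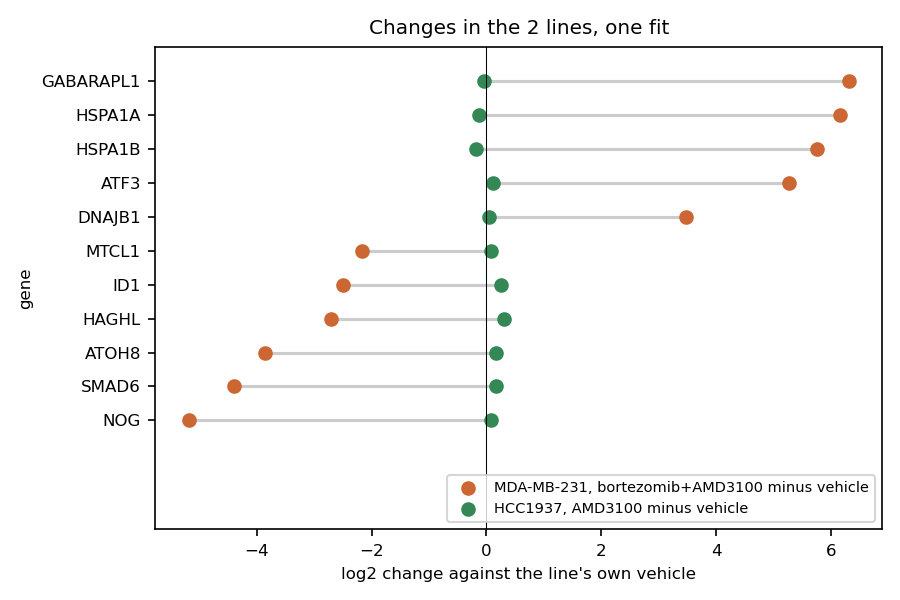
Log2 change against the line's own vehicle (horizontal axis) of 5 genes that were higher and 6 that were lower in MDA-MB-231, taken from those with the smallest p for a difference between the lines, in MDA-MB-231 with bortezomib and AMD3100 and in HCC1937 with AMD3100. The HCC1937 points lie between -0.18 and 0.31, and the MDA-MB-231 points between -5.19 and 6.32.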

How the data were processed

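Poly(A)-selected RNA from cultured cells was sequenced. The authors deposited a table of whole-number read counts per gene and library for each cell line, made with featureCounts 2.0.1 on GRCh38, with MultiQC 1.11 also listed, per the submitters' processing notes. The aligner, the annotation release and the strand setting are not given in the sources used here.

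The MDA-MB-231 table had 78932 features, 61481 with a symbol. The deposited counts of its 9 libraries were fitted together with edgeR 4.0.16 (R 4.3.3) after filterByExpr and TMM scaling, with a quasi-likelihood test and Benjamini-Hochberg adjustment over all tested genes. Log2 levels for principal components used a prior count of 2. The HCC1937 comparison used a second joint fit of both tables. Alternatives were median-of-ratios scaling, no filter on low counts, a replicate block, the compared groups alone, DESeq2 1.42.0, limma-voom 3.58.1, stricter thresholds and each library left out. The edgeR fit against vehicle was tested on simulated data in which few genes changed, equally many up and down. That test does not cover changes as wide as those found here. Library totals without a scaling factor were added after the data were seen.

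Genes were named as the 12 largest rises and 12 largest falls with a mean of at least 5 CPM and no overlap between groups, the 6 largest gains and 6 largest losses in CPM, up to 4 called members of each of 52 gene lists, and 14 genes set by the drugs and the study's theme. Between treated arms the 5 genes with the smallest p were named, and between lines the 6 in each direction. Other list members, among them those that did not pass, were named after their values were seen. The members and lists were chosen with earlier results of these data known. Promoter windows and overlaps came from RefSeq and GENCODE tables. A few genes that these rules name are not reported here.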

Additional observations from a re-analysis of the deposited data

Results flagged for a closer look

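The change in MDA-MB-231 given bortezomib with AMD3100 and the change in HCC1937 given AMD3100 differed for 6445 genes by the edgeR test of the difference itself, for 3358 with HCC1937 AMD3100 replicate 1 kept in and for 3776 with the replicate block. The line and bortezomib cannot be told apart in this design. Larger in MDA-MB-231 were the log2 changes of GABARAPL1 (difference 6.37), HSPA1A (6.27), HSPA1B (5.94), ATF3 (5.16) and DNAJB1 (3.44). Lower in MDA-MB-231 were those of NOG (difference -5.27), SMAD6 (-4.57), ATOH8 (-4.02), HAGHL (-3.02), ID1 (-2.75) and MTCL1 (-2.24). HAGHL, which overlaps 2 other genes, went from 88.4 ± 7.38 CPM (SD, n = 3) to 111 and 109 CPM in HCC1937.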

How the results depend on the processing

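For bortezomib with AMD3100 against vehicle, 7675 genes were called, and the planned fits changed this by less than 1.5 times except for the fold threshold: at least 2-fold, 3879 genes were called, 1643 higher and 2236 lower. Library totals gave 2108 higher and 6308 lower. Leaving out 1 library gave 6363 to 7078 called genes, 3089 to 3525 higher and 3274 to 3581 lower. With the replicate block 6833 genes were called. The deviations of same-numbered treated and vehicle libraries correlated at 0.053, -0.169 and -0.251. Deviations from means of 3 libraries cannot decide whether the numbers pair the samples, and pairing was not tested.

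Between the treated arms, 177 genes were called without the filter (154 higher, 23 lower), 51 with DESeq2 (37 and 14), and 0 to 183 with 1 library left out (0 to 138 higher, 0 to 45 lower), all from bortezomib+TM replicate 3. The cause was not tested. For the difference between the lines, keeping HCC1937 AMD3100 replicate 1 gave 3358 genes (1694 and 1664), the replicate block 3776 (1854 and 1922), and leaving out 1 library 4741 to 7079 (2277 to 3526 higher, 2419 to 3553 lower). The cause was not tested.

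Of 214 named genes tested against vehicle, 202 kept their direction and side of the threshold under every fit and left-out library except library totals, and 12 did not. GNAI2, which did not pass (log2 change -0.02), turned to 0.018 with median-of-ratios scaling, 0.014 with DESeq2 and ranged from -0.086 to 0.071 with 1 library left out (0.0098 without treated replicate 2, 0.071 without vehicle replicate 2, -0.086 without vehicle replicate 3). At 40389469 or more counts a library, genes under a few counts, CXCR4 among them, could not be compared.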
